A study of Mus musculus with 5 samples.

Results

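The genes that make, use and recycle glutathione, together with the other antioxidant enzymes, were followed through the days around embryo attachment in the luminal layer of the mouse uterus. They were chosen by symbol and by no level or difference, although earlier results of these data were known when the group was set. Chosen were the glutathione transferases (Gst and Mgst genes), glutathione peroxidases (Gpx), peroxiredoxins (Prdx), thioredoxin reductases (Txnrd), superoxide dismutases (Sod) and gamma-glutamyltransferases (Ggt), each symbol ending in a number, plus Gclc, Gclm, Gss, Gsr, Txn1, Txn2, Nqo1, Hmox1, Srxn1, Cat and Txnip. This gave 61 of the 23420 genes in the deposited table, and 51 of the 61 reached a mean of 1 CPM over the 5 libraries (counts brought to a common library size, as explained below).

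Wild-type C57BL/6N females were used throughout, with the day of the vaginal plug as day 1 of pregnancy, and their ages are not given in the sources used here. Luminal layers were taken by laser microdissection on the mornings of days 3, 4 and 5 (D3, D4 and D5) and on D4 evening. The D5 tissue was divided into a part at a distance from the attached embryo, called the remote layer here, and a part that surrounded it, called the peri-embryonic layer. The labels also mark the remote layer as M pole (mesometrial) and the peri-embryonic layer as AM pole (anti-mesometrial). Distance from the embryo and pole thus cannot be told apart. No allele was altered in any group, and only the D5 mice received an agent, Chicago blue dye given intravenously to show the implantation sites. Each of the 5 groups is 1 RNA-seq library, and whether RNA of several mice was pooled in a library is not stated for these wild-type samples.

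Glutathione is a small peptide of glutamate, cysteine and glycine that donates electrons and forms conjugates. Glutamate-cysteine ligase makes its first bond, glutathione synthetase finishes it, transferases attach it to reactive compounds, peroxidases spend it on peroxides, and glutathione reductase restores it with NADPH. Peroxiredoxins and thioredoxins form a parallel route for peroxides, superoxide dismutases and catalase act without glutathione, and the transcription factor Nrf2 (gene Nfe2l2) controls many of these genes through antioxidant response elements. In the uterus the luminal epithelium is the surface to which the blastocyst attaches, under the control of ovarian progesterone and oestrogen.

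Because each group is a single library, every difference below compares libraries without a replicate check, and no p-value is given. Total counts lay between 15334674 and 19529491 per library. CPM values carry TMM scaling, and a difference is the log2 CPM of the first library minus that of the second, with a prior count of 2. Brackets after a log2 difference hold its 95% interval from the counts alone (exact, by Clopper and Pearson), which covers counting error only. A gene is called higher or lower when the difference is beyond 1 on the log2 scale, which is 2-fold. Unless stated otherwise, 5 values in a row are CPM on D3 morning, D4 morning, D4 evening, the remote D5 layer and the peri-embryonic D5 layer. In such bulk samples, fewer cells of a type and less RNA per cell cannot be told apart.

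The epithelial markers Krt8, Krt18, Krt7, Krt19, Epcam and Cdh1 were counted in all 5 libraries, with summed levels of 3815, 3884, 3608, 2684 and 5208 CPM. The lowest and the highest sum were thus those of the D5 libraries. Of the 6 markers, 4 were higher in the peri-embryonic layer than in the remote layer and 0 lower. Against D4 morning, 3 of them (Cdh1, Epcam and Krt7) were higher and 1 lower in the peri-embryonic layer. In the remote layer 0 were higher and 2 lower than on D4 morning. Krt19, lower in both D5 libraries, stood at 851, 767.5, 444, 37.7 and 161 CPM. Of the luminal markers, Calb1 stood at 5374, 8022, 4641, 72.3 and 18.0 CPM, Lpar3 at 262, 687, 631, 58.7 and 42.2 CPM and Wnt7a at 154, 74.4, 134, 180.2 and 454 CPM. On D5 Calb1 and Lpar3 were thus far lower than on D4, and Wnt7a was higher. The library of the peri-embryonic layer stood apart in other cell markers. The 7 embryo and trophectoderm markers summed to between 4.75 and 12.7 CPM in the other 4 libraries and to 101 CPM there, and Cdx2, Nanog and Pou5f1 had 0 counts in the other 4 libraries and 22, 10 and 68 counts in the peri-embryonic layer. The 5 smooth muscle markers summed to between 10.6 and 31.4 CPM elsewhere and to 397 CPM in the peri-embryonic layer, mostly from Des, and all 5 were higher there than on D4 morning. The 4 endothelial markers summed to between 8.89 and 21.1 CPM elsewhere and to 81.2 CPM there, of which Cdh5 made up 72.4 CPM, while Tie1 was lower than on D4 morning and Pecam1 and Kdr were within 2-fold of it. The 4 leukocyte markers in the table summed to between 235 and 943 CPM elsewhere and to 101 CPM in the peri-embryonic layer, mostly from Cd14 at 457, 905, 636, 200.4 and 55.2 CPM. Of the others, Csf1r and Ptprc were lower there than on D4 morning and Cd68 was higher. The 8 stromal markers summed to between 467 and 544 CPM elsewhere and to 358 CPM in the peri-embryonic layer, where 2 were higher than on D4 morning, Hand2 by 4.89 and Col1a1 by 1.62 on the log2 scale, and 4 lower, Lum at 6.77 against 55.1 CPM and the rest with differences of -2.33 for Dcn, -2.04 for Col3a1 and -1.68 for Col1a2. The 3 glandular markers in the table summed to at most 8.18 CPM. Of these, Prss28 and Prss29 had 0 counts before D5 and 21 and 35 counts in the remote layer against 44 and 74 in the peri-embryonic layer. The other, Foxa2, had 32, 51, 0, 2 and 21 counts in library order, highest on D4 morning. The part of these cells in the differences that follow was not tested.

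The 61 genes together held 12670, 18340, 15690, 10950 and 8653 CPM in library order, which is 1.46%, 1.68%, 1.49%, 1.23% and 0.768% of the counts. The sum was highest on D4 morning and lowest in the peri-embryonic layer on D5. The 24 glutathione transferases followed the same course, with sums of 7476, 13280, 8320, 4849 and 1449 CPM, so that the level in the peri-embryonic layer was 9.16-fold lower than on D4 morning. Without Gstm1 and Gstm2 the remaining 59 genes summed to 9172, 9693, 11400, 10640 and 8620 CPM, a much narrower range. Per kilobase of transcript (RPKM, from the gene lengths in the table), the leading member was Gstm2 on D3 morning and D4 morning, at 1633 and 4125 RPKM. Gsto1 led on D4 evening at 2498 RPKM, Mgst1 in the remote layer at 3007 RPKM, and Gpx2 in the peri-embryonic layer at 1440 RPKM. By this measure the leading enzyme was a mu-class transferase up to D4 morning and an omega-class transferase on D4 evening. It was a different enzyme in each D5 layer. On D3 morning Prdx1 followed at 1453 RPKM, and by counts alone Prdx1 led there.

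**Figure D1:**
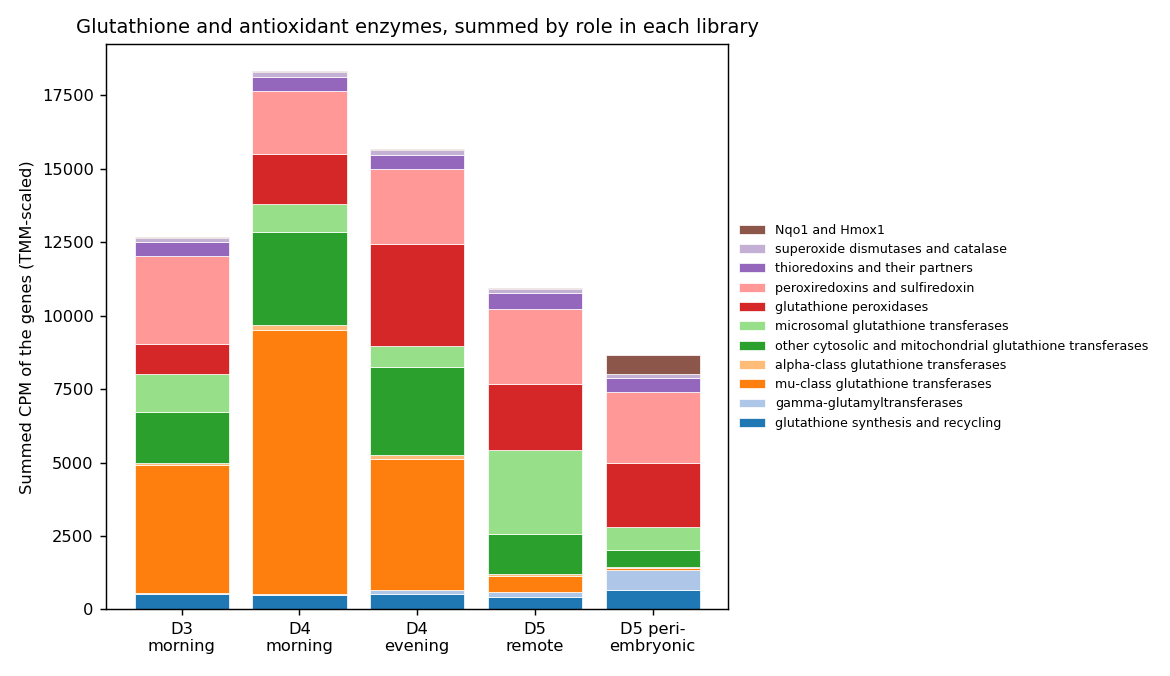
Summed CPM (TMM-scaled) of the 61 genes in each of the 5 libraries, with 1 colour for each role; every bar is 1 library, so there are no error bars. The mu-class transferases make up 8980 of 18340 CPM on D4 morning and 80.8 of 8653 CPM in the peri-embryonic layer on D5.

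Before D5 the shares of the group past 2-fold lay a little above those of all genes. On D3 morning, 7 of the 51 genes were higher than on D4 morning (13.7%, against 11.0% of all 12918 genes kept) and 6 were lower (11.8%, against 7.96%). On D4 evening, 6 were higher (11.8%, against 7.15% of all genes) and 6 were lower (11.8%, against 6.96%). On D5 the shares were larger for the genes in general too. In the remote layer, 10 of 51 were higher than on D4 morning (19.6%, against 14.6% of all genes) and 15 were lower (29.4%, against 14.5%). In the peri-embryonic layer, 13 were higher (25.5%, against 20.9%) and 18 were lower (35.3%, against 22.4%). Between the D5 libraries, 11 were higher in the peri-embryonic layer than in the remote layer (21.6%, against 13.7%) and 16 were lower (31.4%, against 14.5%). The median log2 difference of the 51 genes was -0.13, -0.05, -0.03, -0.05 and -0.17 in these 5 comparisons, and that of all genes -0.04, 0.00, -0.01, -0.02 and -0.02. The first 4 comparisons share the D4 morning library, and the last uses the D5 libraries already compared with it, so the counts do not stand independently. Over the 5 comparisons, 39 of the 51 genes passed 2-fold at least once (76.5%, against 57.4% of all genes).

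Scaling to library totals alone shifted the median of all genes to 0.29 on D3 morning, 0.28 in the remote layer and -0.36 between the D5 libraries, and so changed the balance of directions. Under it the counts higher and lower were 10 and 3 on D3 morning, where the share of higher genes among all genes past 2-fold went from 58.0% to 80.4%. They were 12 and 14 in the remote layer, where that share went from 50.2% to 65.8%, and 8 and 17 between the D5 libraries, where it went from 48.6% to 31.4%.

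A stricter rule, close to that of the study, used the exact test of edgeR at an assumed dispersion of 0.1 with a false discovery rate under 0.05 and a difference beyond 2-fold. The dispersion cannot be measured without replicates, so this rule compares libraries and not conditions. It called 1 of the 51 genes higher (2.93% of all genes) and 0 lower (0.759%) on D3 morning, and 1 higher (1.22%) and 0 lower (0.619%) on D4 evening. Under the 2-fold rule, 6 genes were lower in each of these comparisons. In the remote layer it called 2 higher (5.74%) and 9 lower (5.89%), in the peri-embryonic layer 8 higher (12.4%) and 17 lower (12.0%), and between the D5 libraries 4 higher (6.21%) and 9 lower (4.53%). Sod3 was the gene higher on D3 morning and Gpx2 the gene higher on D4 evening. Gpx3 and Gstm5 were higher in the remote layer. Ggt6, Gsta1, Hmox1 and Sod3 were higher in the peri-embryonic layer than in the remote layer. Gsta1 and Sod3 had a mean below 1 CPM outside their highest library, the peri-embryonic layer for Gsta1 and D3 morning for Sod3. Their calls are thus partly set by the filter.

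**Figure D2:**
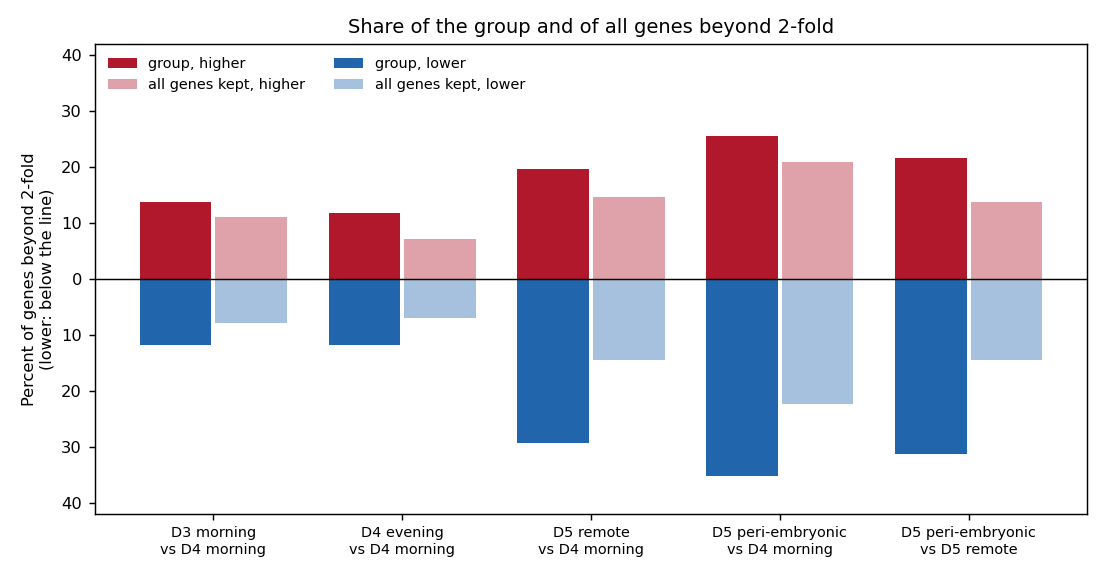
Percent of genes beyond 2-fold in each of the 5 comparisons, for the 51 genes of the group (dark) and for all 12918 genes kept (light), with higher above the line and lower below it; each comparison is between single libraries. The widest gap lies among genes lower between the D5 libraries, 31.4% of the group against 14.5% of all genes.

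The mu-class transferases were the most abundant class before attachment and the one with the widest range. These cytosolic enzymes join glutathione to reactive compounds, and their 7 genes lie next to each other on chromosome 3. In order along the chromosome (GRCm38/mm10, positions from the deposited table) they were Gstm5 (chr3:107895854-107898685), Gstm7 (chr3:107926334-107931745), Gstm6 (chr3:107938848-107943749), Gstm3 (chr3:107963696-107969174), Gstm2 (chr3:107981702-107986436), Gstm1 (chr3:108012250-108017973) and Gstm4 (chr3:108040408-108044859). Gstm5 is the only one on the plus strand. Summed over the class, the level was 4387, 8980, 4454, 557 and 80.8 CPM in library order. It was 16.1-fold lower in the remote layer and 111-fold lower in the peri-embryonic layer than on D4 morning.

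The stretches of 100 bases upstream of 4 of these genes are shown because neighbours in one cluster differed in direction on D5, with Gstm5 higher and Gstm1, Gstm2 and Gstm7 lower. They are reference sequence from RefSeq promoters (GRCm38.p6), 5′ to 3′ on the strand of each gene, and none overlaps an annotated exon of that strand. Capitals mark the core of the antioxidant response element, TGACNNNGC, searched on both strands. The Gstm5 stretch is chr3:107895721-107895820 (plus strand), and its last base lies at -34 from the start site. The others are on the minus strand, at chr3:107931818-107931917 for Gstm7, chr3:107986454-107986553 for Gstm2 and chr3:108017974-108018073 for Gstm1.
Gstm5: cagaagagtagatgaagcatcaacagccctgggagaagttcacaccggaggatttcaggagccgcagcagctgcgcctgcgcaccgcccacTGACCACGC
Gstm7: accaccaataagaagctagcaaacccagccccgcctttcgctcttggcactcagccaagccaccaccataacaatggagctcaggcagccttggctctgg
Gstm2: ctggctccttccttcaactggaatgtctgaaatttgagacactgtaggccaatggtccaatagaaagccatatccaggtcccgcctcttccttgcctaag
Gstm1: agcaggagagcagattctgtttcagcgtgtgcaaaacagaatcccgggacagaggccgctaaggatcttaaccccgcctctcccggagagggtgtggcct

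Of these 4 stretches, that of Gstm5 ends in a match to the core and the others hold none. A further match near Gstm7, at -129 from another start site, lies within an annotated exon and is not printed. The match is a description of letters, not of a bound factor.

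Gstm1 and Gstm2 followed one course, highest on D4 morning and far lower on D5. Gstm1 stood at 1785, 4326, 2318, 265 and 23.2 CPM and Gstm2 at 1709, 4319, 1972, 44.1 and 9.71 CPM. In the peri-embryonic layer Gstm1 was 11.4-fold lower and Gstm2 4.54-fold lower than in the remote layer. Both D5 libraries were thus below D4 morning, and the peri-embryonic layer was the lower of them. Some of their sequence is shared with other transcripts, 23.1% of the 50-base windows of Gstm1 (mostly with the pseudogene Gstm2-ps1) and 9.36% of those of Gstm2, and how such reads were counted is not stated.

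Gstm7 was lower at each later time and shared with Gstm2 the largest differences of the named genes. Its level was 828 CPM on D3 morning, 297 on D4 morning, 115 on D4 evening, 12.7 in the remote layer and 0.53 in the peri-embryonic layer, where it rested on 9 counts. Against D4 morning the difference was -4.53 (-4.74 to -4.36) in the remote layer and -8.85 (-10.26 to -8.21) in the peri-embryonic layer, where Gstm2 was at -8.78 (-9.03 to -8.58). Unlike Gstm1 and Gstm2, it was highest on D3 morning, with a difference of 1.48 (1.43 to 1.52) from D4 morning. None of its 50-base windows is shared with another gene.

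Gstm5 ran the other way. Its level was 37.7 CPM on D3 morning, 9.57 on D4 morning, 31.0 on D4 evening, 228 in the remote layer and 43.3 in the peri-embryonic layer, lowest on D4 morning and highest in the remote layer. Compared with D4 morning, the log2 difference was 4.56 (4.35 to 4.80) in the remote layer, or 23.8-fold higher, and 2.16 (1.94 to 2.43) in the peri-embryonic layer. An antisense gene, 4933431E20Rik, overlaps Gstm5 and shares 14.4% of its windows. That gene had 146, 55, 105, 240 and 22 counts in library order against 666, 171, 489, 4283 and 736 for Gstm5, and since the strand setting of the counting is not stated, reads from the overlap cannot be told apart.

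The 3 other mu-class genes were low. Gstm4 stood at 17.4, 19.5, 12.2, 6.23 and 3.83 CPM, with differences of -1.63 (-1.96 to -1.34) in the remote layer and -2.32 (-2.76 to -1.97) in the peri-embryonic layer. Gstm6 stood at 8.09, 6.44, 4.51, 0.373 and 0.235 CPM. Gstm3 stood at 1.36, 2.74, 1.65, 0 and 0 CPM, with 0 counts in both D5 libraries, which allows at most 0.160 CPM in the remote layer and 0.177 CPM in the peri-embryonic layer at a floor of 3 counts. All 6 mu-class genes on the minus strand were thus lower in both D5 libraries than on D4 morning, and Gstm5 was higher in both.

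**Figure D3:**
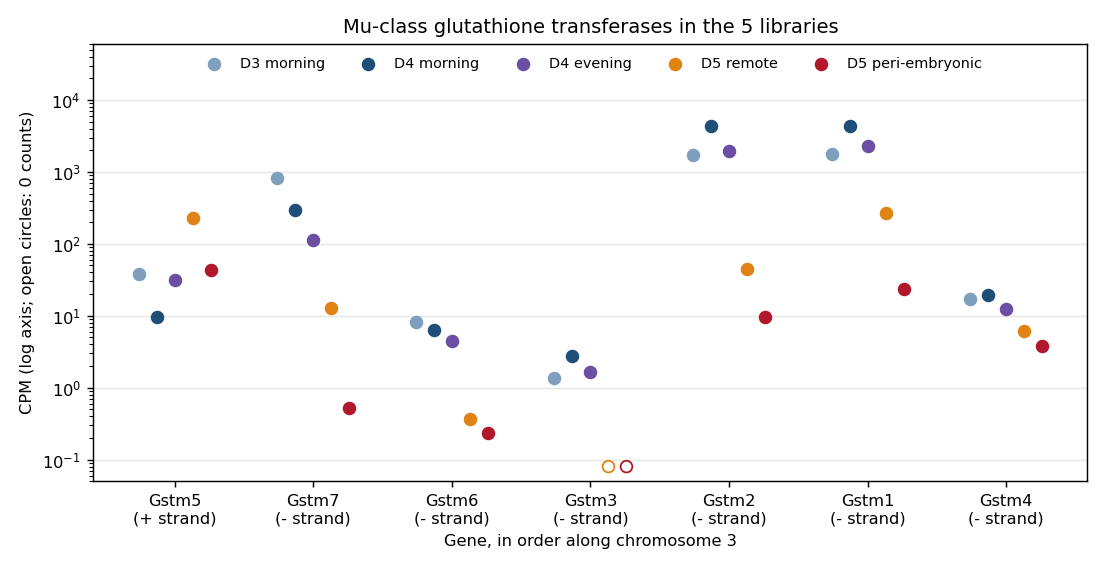
CPM of the 7 mu-class transferases on a log axis, in their order along chromosome 3, with 1 point for each library and open circles for 0 counts. The 6 genes on the minus strand have their lowest levels in the D5 libraries, while Gstm5 stands at 9.57 CPM on D4 morning and 228 CPM in the remote layer.

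Of the 12 transferases kept outside the mu class, 6 were lower and 1 higher in the peri-embryonic layer than on D4 morning, and 5 were lower and 2 higher in the remote layer. Over all classes, 19 of 24 transferases were kept, of which 3 were higher and 11 lower in the remote layer than on D4 morning, and 2 were higher and 12 lower in the peri-embryonic layer. Of all genes, 14.6% were higher and 14.5% lower in the remote layer, and 20.9% were higher and 22.4% lower in the peri-embryonic layer.

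Gsto1, an omega-class transferase that also reduces dehydroascorbate, had the most counts of the transferases outside the mu class before D5. Its level was 1596 CPM on D3 morning, 3007 on D4 morning, 2900 on D4 evening, 1319 in the remote layer and 552 in the peri-embryonic layer. Against D4 morning, it differed by -1.19 (-1.21 to -1.17) in the remote layer and -2.44 (-2.48 to -2.41) in the peri-embryonic layer. Between D4 morning and evening it differed by -0.05 on the log2 scale, against -0.90 for Gstm1 and -1.13 for Gstm2.

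Gsta4, an alpha-class enzyme that clears the lipid aldehyde hydroxynonenal, stood at 53.9, 176, 152, 57.1 and 10.9 CPM. It was 3.27-fold lower on D3 morning than on D4 morning and 16.2-fold lower in the peri-embryonic layer, so its highest levels lay on D4. Gstt3, a theta-class enzyme, stood at 42.6, 51.0, 18.4, 11.9 and 3.36 CPM and was already lower on D4 evening, at -1.46 (-1.67 to -1.28). It shares 26.0% of its windows with Gm20441. Gstz1, which isomerises maleylacetoacetate in tyrosine breakdown, stood at 45.7, 52.1, 45.0, 32.3 and 10.9 CPM, lower only in the peri-embryonic layer among the comparisons with D4 morning, at -2.25 (-2.49 to -2.03). Gstt2 stood at 17.1, 13.1, 7.62, 1.86 and 1.12 CPM and was also lower in both D5 libraries.

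Mgst1, an enzyme of the endoplasmic reticulum and outer mitochondrial membrane, was the exception among the abundant transferases. Its level was 1298 CPM on D3 morning, 965 on D4 morning, 713 on D4 evening, 2835 in the remote layer and 746 in the peri-embryonic layer. It was 2.94-fold higher in the remote layer than on D4 morning, while in the peri-embryonic layer it was -0.37 from D4 morning on the log2 scale. Between the D5 libraries the difference was -1.93 (-1.95 to -1.90). The related Mgst3 was low, at 14.0, 5.82, 5.21, 12.4 and 9.36 CPM.

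Gsta1 and Gsta2 were low and share much of their sequence with each other and with other genes. Gsta1 had 0, 0, 0, 0 and 99 counts in library order and passed the filter on low values through the peri-embryonic library alone. Of its 50-base windows 89.7% are shared, mostly with Gm3776, which had 0, 0, 0, 0 and 62 counts. Gsta2 shares 64.2% and stood at 3.56, 5.04, 1.40, 0 and 0.177 CPM. The pi-class genes Gstp1 and Gstp2, which share 62.3% and 72.6% of their windows, and the kappa-class gene Gstk1 stayed within 2-fold over all 5 libraries. Gstp1 stood at 11.6, 16.9, 14.5, 14.2 and 20.4 CPM, Gstp2 was lower at 1.02, 1.68, 1.40, 1.44 and 1.94 CPM, and Gstk1 lay between them at 3.34, 3.75, 3.62, 3.52 and 3.77 CPM.

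Among the genes that make and restore glutathione, the catalytic subunit of the ligase was lower, and its modifier subunit and the synthetase higher, in the peri-embryonic layer than on D4 morning. Gclc, the catalytic subunit of glutamate-cysteine ligase, stood at 204 CPM on D3 morning, 108 on D4 morning, 57.3 on D4 evening, 157 in the remote layer and 28.7 in the peri-embryonic layer. Gclm, its modifier subunit, stood at 58.9 CPM on D3 morning, 62.5 on D4 morning, 72.2 on D4 evening, 74.3 in the remote layer and 172 in the peri-embryonic layer. In the peri-embryonic layer, against D4 morning, the difference was -1.91 (-2.06 to -1.77) for Gclc and 1.45 (1.36 to 1.56) for Gclm. Gclc was the higher of the pair in the remote layer and Gclm in the peri-embryonic layer, and per kilobase the same order held, with 45.9 RPKM of Gclc and 35.8 RPKM of Gclm in the remote layer and 8.37 and 82.8 RPKM in the peri-embryonic layer. Neither transcript is much shared with other genes, 0.776% of windows for Gclm and 0 for Gclc.

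Gss, glutathione synthetase, stood at 16.2, 12.5, 21.2, 12.2 and 29.3 CPM and Gsr, glutathione reductase, at 247, 292, 371, 169.7 and 431 CPM. Both were highest in the peri-embryonic layer, where on the log2 scale Gss was 1.25 (1.03 to 1.49) and Gsr 1.34 (1.28 to 1.40) above the remote layer. Against D4 morning, Gsr was within 2-fold in every library. The summed level of the 4 genes was 527, 476, 522, 414 and 660.2 CPM.

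Ggt6, a member of the gamma-glutamyltransferase family whose enzymes take the glutamyl group off glutathione, was higher in each later time point. Its level was 14.5 CPM on D3 morning, 54.2 on D4 morning, 135 on D4 evening, 167 in the remote layer and 680.1 in the peri-embryonic layer. The difference from D4 morning was -1.89 (-2.10 to -1.70) on D3 morning, 1.32 (1.21 to 1.43) on D4 evening, 1.62 (1.51 to 1.72) in the remote layer and 3.65 (3.55 to 3.74) in the peri-embryonic layer, the last being 12.5-fold higher. None of its windows is shared. Of the 3 other family members, Ggt7 stood at 0.509, 1.29, 0.698, 1.01 and 1.82 CPM and Ggt1 and Ggt5 were not kept.

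The glutathione peroxidases, which reduce peroxides at the cost of glutathione, exchanged their leading members. Summed over the family, the level was 1020, 1689, 3450, 2240 and 2184 CPM, highest on D4 evening. Gpx2, a peroxidase best known from epithelia, stood at 138 CPM on D3 morning, 272 on D4 morning, 1426 on D4 evening, 512 in the remote layer and 1537 in the peri-embryonic layer. Against D4 morning, the log2 difference was 2.39 (2.35 to 2.44) on D4 evening, 0.91 (0.86 to 0.96) in the remote layer and 2.50 (2.46 to 2.55) in the peri-embryonic layer. The levels on D4 evening and in the peri-embryonic layer were thus close, with the remote layer between them and D4 morning. Gpx2 shares 18.9% of its windows with the processed pseudogene Gpx2-ps1, which was counted at 1.19, 1.90, 8.89, 3.25 and 8.36 CPM and cannot be separated from it with certainty.

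Gpx1, the common cytosolic peroxidase, stood at 575, 1241, 1806, 991 and 335 CPM. It was highest on D4 evening and lowest in the peri-embryonic layer, at -1.89 (-1.93 to -1.85) against D4 morning, whereas Gpx2 was highest there. Gpx1 therefore exceeded Gpx2 on D4 morning, at 1186 against 254 RPKM, and Gpx2 exceeded Gpx1 in the peri-embryonic layer, at 1440 against 319.8 RPKM.

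Gpx3, the secreted peroxidase, was low before D5 and highest in the remote layer. Its level was 12.9 CPM on D3 morning, 6.38 on D4 morning, 2.86 on D4 evening, 384 in the remote layer and 49.2 in the peri-embryonic layer. The difference from D4 morning was 5.89 (5.64 to 6.19) in the remote layer, or 60.2-fold higher, and 2.92 (2.66 to 3.24) in the peri-embryonic layer. In the peri-embryonic layer it was 7.80-fold lower than in the remote layer, the same order as for Gstm5 and Mgst1. Gpx8, a peroxidase of the endoplasmic reticulum membrane, stood at 211, 94.3, 148, 271 and 193 CPM and was lowest on D4 morning. Gpx7, from the same compartment, stood at 14.2, 10.4, 5.52, 12.7 and 5.00 CPM. Gpx4, which acts on lipid hydroperoxides in membranes, stayed between 53.5 and 69.0 CPM, and 61.7% of its windows are shared, mostly with the pseudogene Gpx4-ps2.

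**Figure D4:**
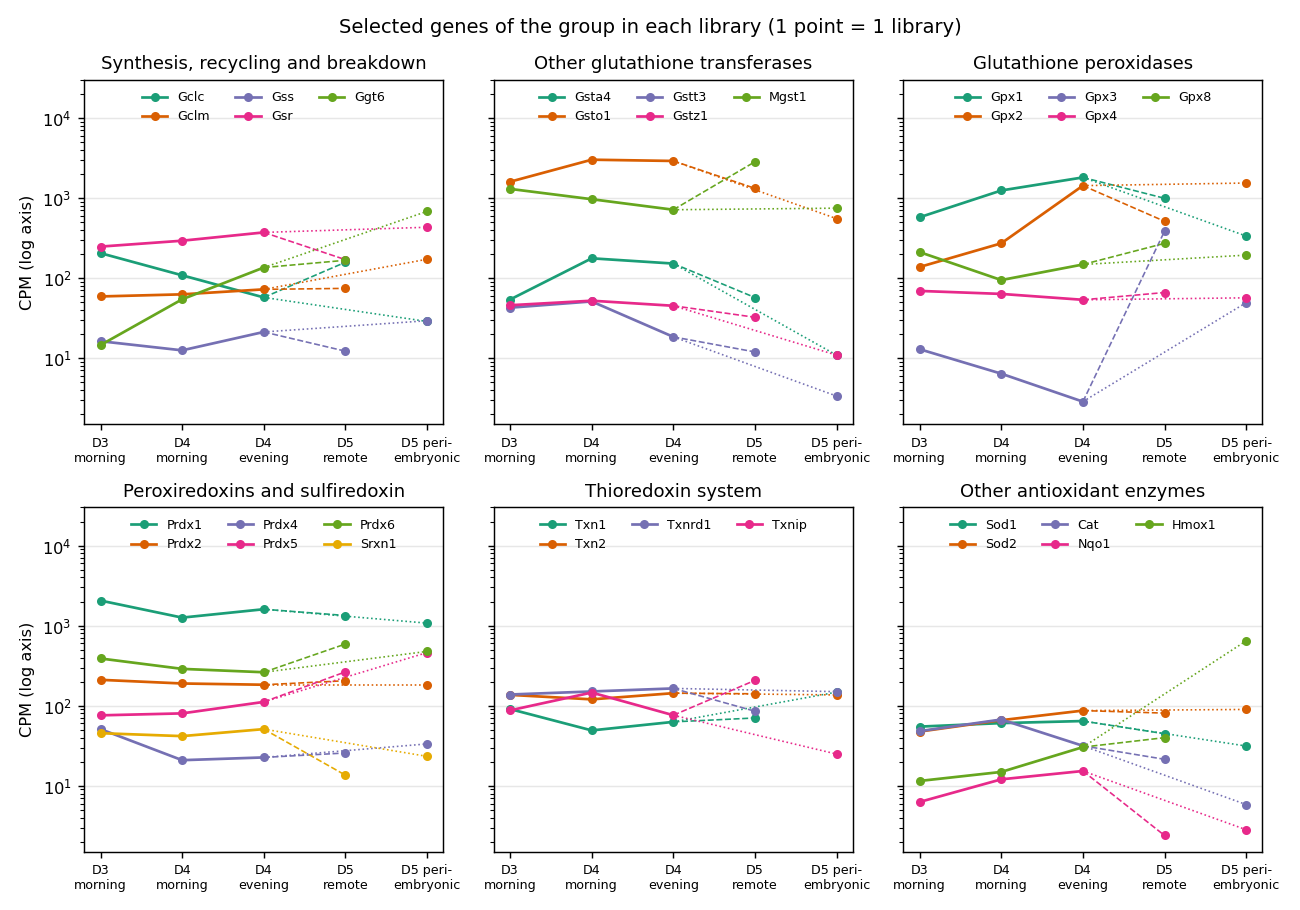
CPM of 30 genes of the group on a log axis, by role; points are single libraries, full lines join D3 morning, D4 morning and D4 evening, and broken and dotted lines lead from D4 evening to the remote and the peri-embryonic layer. Gpx2, Ggt6, Prdx5 and Hmox1 end highest in the peri-embryonic layer, while Gpx3, Mgst1 and Txnip end highest in the remote layer.

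Peroxiredoxins, which reduce peroxides with thioredoxin or glutathione, varied less. The family and sulfiredoxin summed to 2994, 2141, 2580, 2571 and 2432 CPM. Prdx1, the most abundant, stood at 2059, 1261, 1605, 1340 and 1076 CPM and Prdx2 at 211, 189.6, 183, 205 and 183 CPM, both cytosolic and both within 2-fold over the 5 libraries. The mitochondrial Prdx3 stood at 164, 259.5, 344, 131 and 178 CPM. Prdx4, of the endoplasmic reticulum, stood at 51.0, 20.9, 22.6, 25.7 and 33.3 CPM and was 2.44-fold higher on D3 morning than on D4 morning.

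Prdx5, found in mitochondria, peroxisomes and cytosol, was the family member with the largest difference. Its level was 75.8 CPM on D3 morning, 80.2 on D4 morning, 112 on D4 evening, 265 in the remote layer and 461 in the peri-embryonic layer. Its log2 difference from D4 morning was 1.72 (1.64 to 1.81) in the remote layer and 2.52 (2.44 to 2.61) in the peri-embryonic layer. In the reference transcripts 29.7% of its windows are shared with the neighbouring gene Trmt112, although the spans of these genes in the deposited table do not overlap. Trmt112 differed by 0.20 and 0.30 in the same comparisons. Prdx6, which uses glutathione as its reductant, stood at 389, 289, 262, 589.9 and 477 CPM and was just past 2-fold in the remote layer, at 1.03 (0.98 to 1.08). Srxn1, sulfiredoxin, which restores overoxidised peroxiredoxins, stood at 45.4, 41.7, 51.0, 13.6 and 23.3 CPM, lower in the remote layer at -1.61 (-1.83 to -1.41).

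The thioredoxin genes had a flat sum, 462, 474, 454, 518 and 467 CPM, over members that differed in direction. Txn1, cytosolic thioredoxin, stood at 90.8, 49.2, 62.8, 70.3 and 148 CPM, and in the peri-embryonic layer the difference from D4 morning was 1.59 (1.48 to 1.70). Txnip, the protein that binds thioredoxin and restrains glucose uptake, stood at 87.5 CPM on D3 morning, 146 on D4 morning, 76.1 on D4 evening, 207 in the remote layer and 24.9 in the peri-embryonic layer. In the peri-embryonic layer Txnip differed by -2.55 (-2.70 to -2.40) from D4 morning and by -3.05 (-3.21 to -2.91) from the remote layer on the log2 scale. Thioredoxin and its inhibitor thus had opposite signs in the peri-embryonic layer. An antisense gene, Gm15441, shares 18.4% of the windows of Txnip and had at most 57 counts in a library, against at least 423 for Txnip. The mitochondrial Txn2 stood at 137, 120.1, 144, 141 and 136 CPM. The cytosolic reductase Txnrd1 stood at 138, 151, 164, 85.4 and 150.0 CPM. The mitochondrial reductase Txnrd2 stood at 4.30, 4.65, 3.11, 5.65 and 5.24 CPM, and these 3 genes stayed within 2-fold over the 5 libraries. Txnrd3 stood at 4.41, 3.30, 4.06, 8.26 and 2.65 CPM, highest in the remote layer.

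Among the superoxide dismutases and catalase, Cat differed most from D4 morning in the peri-embryonic layer. Catalase, which breaks down hydrogen peroxide in peroxisomes, stood at 48.2 CPM on D3 morning, 67.2 on D4 morning, 31.6 on D4 evening, 21.4 in the remote layer and 5.83 in the peri-embryonic layer. The difference from D4 morning was -1.09 (-1.25 to -0.94) on D4 evening, -1.65 (-1.82 to -1.49) in the remote layer and -3.50 (-3.84 to -3.23) in the peri-embryonic layer. The cytosolic superoxide dismutase Sod1 stood at 54.8, 60.6, 64.4, 44.7 and 31.4 CPM, within 2-fold of D4 morning in each library. The mitochondrial Sod2 stood at 47.5, 66.0, 87.0, 80.9 and 89.8 CPM. Sod3, the extracellular form, had 61, 5, 24, 0 and 25 counts in library order, and its calls rest on these few counts.

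Hmox1, the haem oxygenase that breaks down haem, is an often used target of Nrf2. Of the 30 genes of the group named by the limits given below, it had the largest difference upward between the peri-embryonic and the remote layer. Gsta1, outside these 30, differed by 5.69, from 99 against 0 counts. The level of Hmox1 was 11.5 CPM on D3 morning, 14.9 on D4 morning, 30.4 on D4 evening, 39.9 in the remote layer and 646 in the peri-embryonic layer. The difference from D4 morning was 1.02 (0.81 to 1.25) on D4 evening, 1.41 (1.22 to 1.63) in the remote layer and 5.43 (5.26 to 5.62) in the peri-embryonic layer, and the last was 43.4-fold higher. Between the D5 libraries it was 4.01 (3.91 to 4.12). Macrophages are known to express Hmox1, and the macrophage marker Cd68 had 308, 180, 158, 220 and 670 counts while the leukocyte gene Ptprc had 136, 351, 250, 250 and 66 and Csf1r 97, 148, 112, 170 and 37, so of these markers Cd68 was highest in the peri-embryonic layer and the other two were lowest there. The part of such cells was not tested. Nqo1, a quinone reductase and another often used target of Nrf2, went the other way, at 6.28, 12.0, 15.3, 2.40 and 2.83 CPM, with -2.27 (-2.83 to -1.86) in the remote layer and -2.05 (-2.57 to -1.63) in the peri-embryonic layer.

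The D5 libraries differed from each other as well as from D4. Relative to D4 morning, 15 of the 51 genes (29.4%, against 22.7% of all genes) had opposite signs in them, some with values close to 0. Among the genes past 2-fold in at least 1 of these comparisons, Gclc (0.54 in the remote layer and -1.91 in the peri-embryonic layer), Txnip (0.50 and -2.55), Gpx7 (0.29 and -1.03), Mgst1 (1.55 and -0.37) and Txnrd3 (1.29 and -0.31) were above D4 morning in the remote layer and below it in the peri-embryonic layer. Gss (-0.03 and 1.22) and Sod3 (-1.78 and 2.01) had the reverse signs. The Sod3 value in the remote layer rests on 0 against 5 counts, with an interval up to 0.05. These 7 genes are 13.7% of the group, against 7.19% of all genes. No test of these differences was possible with single libraries. Compared with each other, Hmox1, Ggt6, Gpx2 and Txn1 were higher in the peri-embryonic layer, while Mgst1, Gpx3, Gstm5, Txnip and Gclc were higher in the remote layer. Gstm1, Gstm2, Gstm7, Gsta4, Gsto1, Gstt3 and Cat were lower in both than on D4 morning, and lower in the peri-embryonic than in the remote layer. Of the 51 genes, 14 were highest in the peri-embryonic layer (27.5%, against 29.9% of all genes) and 19 were lowest there (37.3%, against 31.2%), so it was the library with the most extremes for the group and for genes in general.

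**Figure D5:**
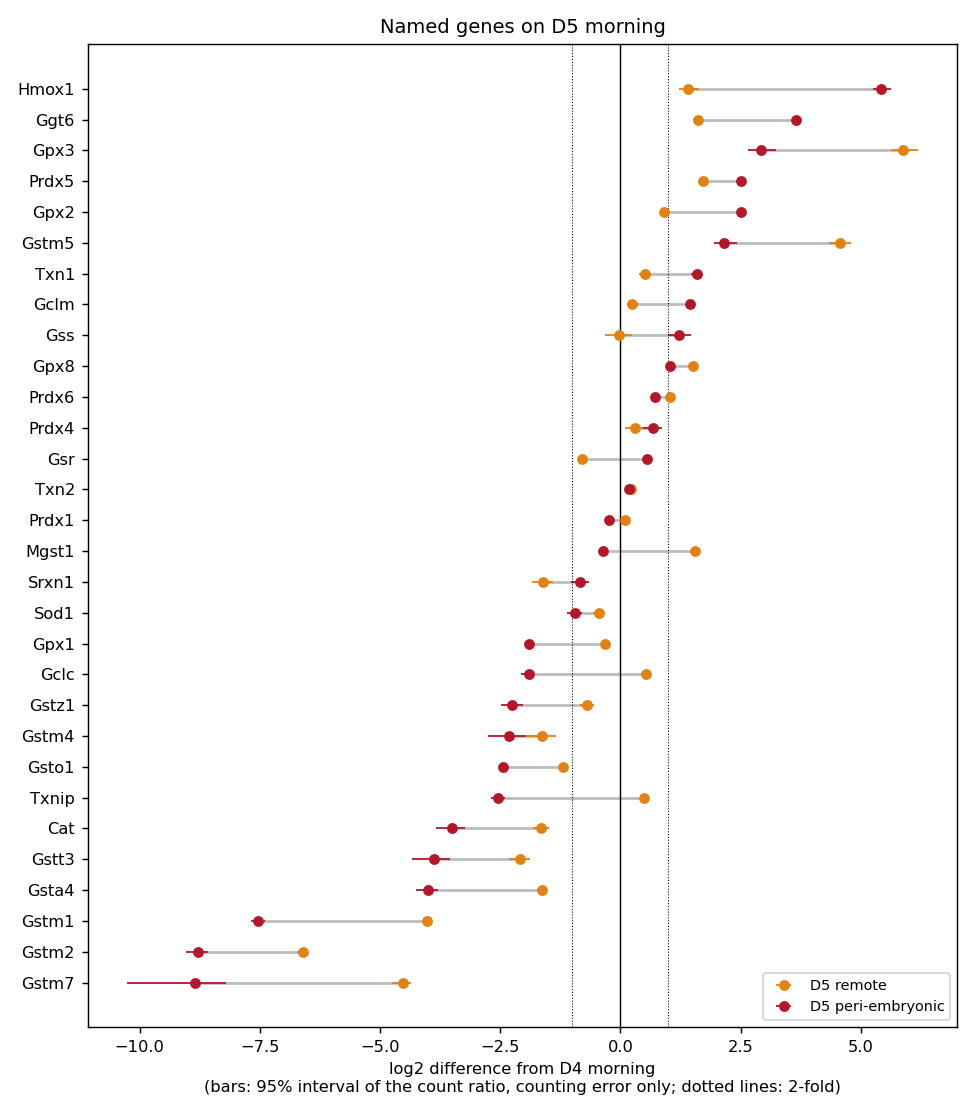
Log2 difference from D4 morning of the 30 named genes in the remote layer (orange) and in the peri-embryonic layer (red) on D5, with bars for the 95% interval of the count ratio (counting error only) and dotted lines at 2-fold. Hmox1 lies at 1.41 and 5.43, Gclc at 0.54 and -1.91, and Gstm7 at -4.53 and -8.85.

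A part of the group was steady. Within 2-fold over all 5 libraries lay 10 of the 51 genes (19.6%, against 34.7% of all 12918 genes), Gpx4, Gstk1, Gstp1, Gstp2, Prdx1, Prdx2, Sod2, Txn2, Txnrd1 and Txnrd2. They include Prdx1 and Prdx2 but not Prdx3, Prdx4, Prdx5 or Prdx6. At the other end, 6 genes (Ggt6, Gpx3, Gstm2, Gstm5, Gstm7 and Sod3) passed 2-fold in all 5 comparisons (11.8%, against 2.04% of all genes). For Sod3 the call in the remote layer rests on 0 against 5 counts, with an interval up to 0.05. The 10 genes that were not kept, Ggt1, Ggt5, Gsta3, Gsto2, Gstt1, Gstt4, Mgst2, Gpx5, Gpx6 and Prdx6b, had at most 28 counts in any library, and Gstt4, Gpx5, Gpx6 and Prdx6b had 0 in all. The filter used the mean over the 5 libraries, and 4 of the 51 genes (Ggt7, Gsta1, Gstm3 and Sod3) had a mean below 1 CPM outside their highest library, so their differences are partly set by the filter.

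Promoter sequences from RefSeq, 250 bases before to 50 after each start site, were found for 51 of the 61 genes, and Gclc, Gsr, Hmox1, Gsta4, Gstt2, Sod3, Prdx6, Ggt5, Gpx2-ps1 and Prdx6b were not matched. The core of the antioxidant response element, TGACNNNGC on either strand, was present for 10 of these 51 genes (19.6%) and for 14.0% of all 27025 genes with a RefSeq promoter. They were Gclm, Ggt1, Gsta3, Gstm5, Gstm7, Mgst1, Prdx1, Sod1, Srxn1 and Txnrd1. The Stat core TTCNNNGAA was present for 8 of 51 (15.7%, against 9.55%), Gpx8, Gsta1, Gstm6, Mgst1, Mgst2, Sod2, Txn2 and Txnrd1, and the steroid receptor core ACANNNTGT for 1 of 51 (1.96%, against 7.90%), Txnip. To show what the first motif looked like in the group, 41 bases centred on the match (in capitals) are given for 4 genes. The genes are on the plus strand, and the stretches overlap no annotated exon of that strand. They lie at chr3:122245407-122245447 for Gclm, chr4:116685450-116685490 for Prdx1, chr16:90220690-90220730 for Sod1 and chr10:82859098-82859138 for Txnrd1 (GRCm38.p6), and each holds the motif on the opposite strand. No match to one motif overlapped a match to another.
Gclm: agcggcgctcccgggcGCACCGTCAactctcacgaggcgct
Prdx1: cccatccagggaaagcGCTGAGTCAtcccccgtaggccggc
Sod1: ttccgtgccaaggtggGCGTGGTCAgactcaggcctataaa
Txnrd1: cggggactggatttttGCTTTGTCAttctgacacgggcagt

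Of these 4 genes, Gclm was higher in the peri-embryonic layer than on D4 morning, and Prdx1, Sod1 and Txnrd1 were within 2-fold of it there. Of the other genes with the core that were kept, Gstm5 was higher and Gstm7 lower in both D5 libraries. Against D4 morning, Mgst1 differed by 1.55 in the remote layer and -0.37 in the peri-embryonic layer, and Srxn1 by -1.61 and -0.84. A match in these promoters thus went with no single direction. Matches farther from the start sites were not looked for, and Hmox1 and Gclc had no promoter to search.

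The regulators of the response were measured alongside. Nfe2l2, which encodes Nrf2, stood at 255, 375, 499.9, 456 and 348 CPM and stayed within 2-fold of D4 morning, as did Keap1, its inhibitor, at 66.7, 64.2, 59.2, 55.3 and 42.4 CPM. Of the 8 genes listed as Nrf2 and its regulators, 3 were higher and 0 lower in the remote layer (14.6% and 14.5% of all genes), and 4 were higher and 0 lower in the peri-embryonic layer (20.9% and 22.4%). Maff, a small Maf protein that partners Nrf2 on DNA, had 93, 60, 172, 592 and 2428 counts in library order and differed from D4 morning by 5.36 (5.04 to 5.81) in the peri-embryonic layer. Mafk differed by 1.31 in the remote layer and 1.74 in the peri-embryonic layer, Nfe2l1 by 1.38 and 1.11, and Mafg by 0.51 and 1.25.

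Among genes that bring in and handle the building blocks of glutathione, Slc7a11 differed far more than the others between the D5 libraries. This cystine carrier, which limits the supply of cysteine, stood at 162 CPM on D3 morning, 44.6 on D4 morning, 13.8 on D4 evening, 4.95 in the remote layer and 666 in the peri-embryonic layer. Its difference from D4 morning was -3.14 (-3.50 to -2.86) in the remote layer and 3.90 (3.80 to 4.00) in the peri-embryonic layer, and that between the D5 layers 7.04 (6.78 to 7.38). Slc3a2, the chain with which it forms the transporter, stood at 71.0, 44.1, 64.9, 47.6 and 204 CPM, also highest in the peri-embryonic layer. Cth, which makes cysteine from cystathionine, stood at 25.0, 33.1, 19.7, 1.97 and 6.71 CPM and was lower in both D5 libraries. Cbs, the enzyme before it, stood at 2.77, 19.6, 56.0, 28.0 and 20.6 CPM, highest on D4 evening. Anpep, an aminopeptidase that acts after gamma-glutamyltransferase, stood at 229, 329, 307, 18.6 and 22.8 CPM, and Ggct, which acts on gamma-glutamyl amino acids, at 20.0, 27.7, 17.5, 5.65 and 3.30 CPM. Abcc1, an exporter of glutathione conjugates, stood at 39.4, 52.6, 54.8, 116 and 168 CPM. Of the 14 genes of this list, 13 were kept, of which 2 were higher and 4 lower in the remote layer (14.6% and 14.5% of all genes), and 4 were higher and 4 lower in the peri-embryonic layer (20.9% and 22.4%). Slc7a11, Ggt6, Hmox1 and Gclm were thus all highest in the peri-embryonic layer, where Gclc was lowest.

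Of the other enzymes that use glutathione, more were higher than lower on D5. Of 10 listed, 9 were kept, of which 5 were higher and 0 lower in the remote layer (14.6% and 14.5% of all genes), and 4 were higher and 1 lower in the peri-embryonic layer (20.9% and 22.4%). Glrx, glutaredoxin, which reduces protein mixed disulphides with glutathione, stood at 9.45 CPM on D3 morning, 8.06 on D4 morning, 8.82 on D4 evening, 62.1 in the remote layer and 420.4 in the peri-embryonic layer. Its difference from D4 morning was 2.93 (2.69 to 3.21) in the remote layer and 5.68 (5.47 to 5.95) in the peri-embryonic layer. Glo1, which detoxifies methylglyoxal, stood at 53.4, 46.9, 67.2, 264 and 426 CPM. Among glutathione-dependent prostaglandin synthases, Hpgds, for prostaglandin D, stood at 3.73, 3.53, 5.27, 23.9 and 21.1 CPM, and Ptges, for prostaglandin E, at 0.566, 0.84, 2.41, 3.78 and 74.4 CPM. Ptges differed from D4 morning by 6.29 (5.74 to 7.31) in the peri-embryonic layer. Esd, which hydrolyses formylglutathione, stood at 115, 117, 216, 242 and 233 CPM, and Glrx5, a mitochondrial glutaredoxin of iron-sulphur assembly, at 139.6, 192, 179.6, 160.3 and 94.4 CPM, lower in the peri-embryonic layer.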

How the data were processed

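RNA-seq of laser-microdissected luminal layers was analysed in 5 libraries, 1 per group. Per the labels and the study's methods, libraries were made with a SMART-seq v.4 kit, paired-end reads were aligned to GRCm38/mm10 with HISAT2, and reads per gene were counted with featureCounts of Subread 2.0.0. The table deposited by the authors gives raw counts for 23420 genes, without normalization, with positions and gene lengths in bases. The annotation, strand setting and handling of reads with several alignments are not given in the sources used here.

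Counts were scaled by TMM in edgeR 4.0.16 (R 4.3.3), computed on the 12918 genes whose mean reached 1 CPM, and log2 CPM carried a prior count of 2. RPKM used the gene lengths of the table. Genes were called at a log2 difference beyond 1. Intervals were exact Clopper-Pearson intervals at 95% (scipy 1.17.1) and, with the floor of 3 counts (0.160 to 0.190 CPM per library), cover counting error only. A fold against a library at 0 was computed against this floor and is a lower bound. The computation of differences and intervals was tested on simulated counts with known folds. Promoters came from RefSeq (GRCm38.p6), and shared 50-base windows from the reference transcripts.

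Alternatives were DESeq2 1.42.0 size factors, scaling to library totals, 0.5 as the prior count, keeping every gene, a minimum mean of 5 CPM, and edgeR's exact test at dispersions of 0.1 and 0.4. Named with all their values were genes of the group with a mean of at least 10 CPM and a difference past 2-fold in at least 1 comparison, and the gene of each role with the highest mean RPKM. Genes of the related lists were named by the same limits, and counts of few genes were spelled out. Other genes of the group were named after their values were seen. The genes, lists and rules were chosen with earlier results of these data known. A further luminal marker is not reported here.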

Additional observations from a re-analysis of the deposited data

Results flagged for a closer look

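Sod3, the extracellular superoxide dismutase, was set aside for a closer look because its difference from D4 morning had opposite signs past 2-fold in the D5 libraries, -1.78 in the remote layer and 2.01 in the peri-embryonic layer. The difference between them was not tested, since each is 1 library. The counts behind it were 5 on D4 morning, 0 in the remote layer and 25 in the peri-embryonic layer. In the remote layer the counting interval reaches 0.05 at its upper end and so includes 0. The call used the log2 difference with its prior count. Against the floor of 3 counts, Sod3 was at least 1.75-fold lower there, which is short of 2-fold.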

How the results depend on the processing

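No paired analysis was possible because each group is 1 library, and for the same reason no library could be left out. Against the 2-fold counts, the edgeR exact test at dispersions of 0.1 and 0.4 called 1 and 0 genes of the group higher on D3 morning in place of 7, and 0 and 0 lower in place of 6. On D4 evening it called 1 and 0 higher in place of 6, and 0 and 0 lower in place of 6. In the remote layer it called 2 and 1 higher in place of 10, and 9 and 2 lower in place of 15. In the peri-embryonic layer it called 8 and 2 higher in place of 13 and, at 0.4, 4 lower in place of 18. Between the D5 libraries it called 4 and 1 higher in place of 11, and 9 and 0 lower in place of 16. These tests assume a spread that these data cannot give, and at 0.4 they called between 0 and 2.86% of all genes. Scaling by library totals gave 3 genes lower on D3 morning and a median of 0.19 in place of -0.13, and a minimum mean of 5 CPM gave 7 genes higher between the D5 libraries, fewer genes being tested. Keeping every gene moved no count by over 1.5 times. With DESeq2 size factors, 147 of the 150 differences of named genes moved by less than their counting interval and 3 by more. With a prior count of 0.5, all 150 moved by less, and with library totals 54 did and 96 moved by more. No named gene changed sign past 2-fold under any of these 3 settings. Depth limits the calls for genes of the group near the floor, such as Sod3, Gstm3 and Gsta1.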

Other observations

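Of the genes outside the group that supply NADPH, Me1 differed most from D4 morning on D5, and the sum was higher in both D5 layers. The 8 genes listed summed to 536, 490, 464, 693 and 789 CPM in library order. Me1, cytosolic malic enzyme, stood at 23.8, 6.78, 9.01, 134 and 165 CPM, and its difference from D4 morning was 4.29 (4.05 to 4.58) in the remote layer and 4.58 (4.34 to 4.88) in the peri-embryonic layer. Idh2, mitochondrial isocitrate dehydrogenase, stood at 35.9, 14.9, 14.8, 70.9 and 12.5 CPM, high in the remote layer and low in the peri-embryonic layer. Idh1, its cytosolic counterpart, stood at 59.8, 41.9, 36.8, 12.0 and 24.8 CPM, Pgd of the pentose phosphate pathway at 71.8, 68.2, 55.4, 74.3 and 154 CPM, and Nnt, the mitochondrial transhydrogenase, at 30.8, 30.2, 33.5, 40.3 and 16.0 CPM. In the remote layer 2 of the 8 were higher and 1 lower than on D4 morning, and in the peri-embryonic layer 2 were higher and 0 lower, against 14.6%, 14.5%, 20.9% and 22.4% of all genes.

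Of 14 genes of other redox repair in the table, 2 were higher and 4 lower in the remote layer (14.6% and 14.5% of all genes), and 1 was higher and 8 lower in the peri-embryonic layer (20.9% and 22.4%). Arrdc4, a relative of Txnip that also restrains glucose uptake, stood at 29.2, 25.9, 70.4, 32.5 and 416 CPM, highest in the peri-embryonic layer where Txnip was lowest. Of the stress-induced sestrins, Sesn1 stood at 24.3, 64.5, 13.3, 9.16 and 3.24 CPM and Sesn2 at 23.0, 47.5, 14.1, 6.45 and 18.4 CPM, both highest on D4 morning. Nqo2, Ephx1, Cbr1, Msrb2 and Msra stood at their lowest in the peri-embryonic layer, at 4.83, 3.30, 32.6, 4.59 and 11.4 CPM. Of 11 listed oxidant producers, 3 were kept, of which 2 were higher and 0 lower in the remote layer, and 1 was higher and 1 lower in the peri-embryonic layer, against the same shares of all genes. Xdh, xanthine dehydrogenase, stood at 11.6, 13.4, 6.41, 27.9 and 94.8 CPM and differed from D4 morning by 2.81 (2.62 to 3.02) in the peri-embryonic layer. Of the subunits of a phagocyte NADPH oxidase, Cyba stood at 58.9, 36.4, 37.3, 94.7 and 72.0 CPM and Cybb at 7.53, 14.4, 13.6, 15.2 and 4.06 CPM.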
